A study of Mus musculus with 8 samples.

Results

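Respiratory complex I was followed in infarcted and sham-operated mouse hearts through the genes whose symbol begins with Nduf, which name most of its nuclear-encoded subunits and several of its assembly factors. The members were all spots of the array whose single annotated symbol begins with those letters, with several spots of a gene averaged on each array and spots of several symbols left out. They came to 40 genes on 47 of the 33600 spots, out of 13661 genes with a symbol. By role they comprised 6 core subunits, 9 accessory subunits of the matrix arm, 17 accessory subunits of the membrane arm, the acyl carrier protein Ndufab1 and 5 assembly factors. The remaining members were Ndufa4, now assigned to complex IV, and the pseudogene symbol Ndufs5-ps, whose spots may also bind transcripts of Ndufs5. Assembly factor Ndufaf3 had no value on any array, so 39 genes were tested. Ndufa4l2 was looked for and was not analysed here, and no subunit gene of mitochondrial DNA was among the named spots.

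All hearts came from C57Bl/6 mice aged 8 to 10 weeks. The infarcted group comprised 4 mice with a permanent ligature on the left coronary artery's descending branch, and the sham control group 4 mice in which the thread was passed but left untied. RNA of the whole heart was used, so infarct, border and remote muscle were measured as a mixture. How long after the operation the hearts were taken is not stated in the sources used. Heart RNA was labelled red and competed with a green universal mouse reference on every array, with the same dye orientation throughout.

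Complex I is the entry point of electrons from NADH into the mitochondrial respiratory chain. Its matrix arm carries a flavin and a chain of iron-sulfur clusters that pass the electrons to ubiquinone, and its membrane arm pumps protons. Core subunits carry the catalysis, accessory subunits surround and stabilise them, and assembly factors build the complex without staying in it. Heart muscle, packed with mitochondria, holds large amounts of it.

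A signal value here is log2 of a spot's signal over the median signal of its block of spots on the same array, so 0 is the median spot. The deposited values hold a single channel, which was taken to be the heart channel; which channel they hold is not settled by the sources used here. A difference is the infarcted mean minus the sham mean with the standard error (SE) of the limma fit, and means are given with the standard deviation (SD). Signals of different spots do not rank the amounts of different transcripts.

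Sham arrays held values for 19704 to 24819 spots and infarcted arrays for 21916 to 23655. The arrays differed in the spread of their signals, with the 99th percentile at 5.96, 6.31, 6.08 and 5.65 on sham replicates 1 to 4. On infarcted replicates 1 to 4 it lay at 5.09, 5.14, 5.05 and 5.24, below every sham array. Sham replicate 4 stood apart, with correlations across spots of 0.873 to 0.894 with the other 7 arrays, where all 21 other pairs lay between 0.900 and 0.958. Of the heart muscle markers 14 of 15 were among the named spots, and the 6 that could be tested had mean signals of 3.47 to 6.43, far above the median spot. Atp2a2, Myl3 and Mb, had no value on any sham array. The number of arrays limits the precision throughout.

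With the arrays centred on their medians, 37 of the 39 tested complex I genes had a negative difference, and the median was -0.72. Over all 18044 features tested, 57.5% were negative and the median was -0.08. In limma, 0 of the 39 genes passed an adjusted p of 0.05, where 0.549% of all features passed (0.493% lower and 0.0554% higher). At an unadjusted p under 0.05, 25 of the 39 genes were lower and 1, Ndufa9, was higher, beside 8.82% and 3.46% of all features. For 22 genes every infarcted array lay below every sham array, beside 6.27% of all features, and for Ndufa9 every infarcted array lay above, beside 2.62%. Without sham replicate 4, 36 of 38 tested members were negative, the median was -0.79, and 27 lay lower without overlap, beside 12.8% of all features. In that setting 4 members passed, beside 3.58%. The infarcted arrays also had lower 99th percentiles than the sham arrays. The part of this in the differences was not tested beyond the other scalings and the bands of signal below. Whole hearts were used, so fewer cells rich in these transcripts and less transcript per cell cannot be told apart either.

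These counts depended on the scaling of the arrays. After quantile normalization, which gives every array the same distribution of signals, 20 of the 39 differences were negative and their median was -0.01, beside 49.8% and a median of 0.00 for all features. No member then lay lower without overlap (0 of 39, beside 3.59% of all features) and 2 lay higher (beside 3.56%). None passed in limma (beside 0.177%), and at an unadjusted p under 0.05 there were 0 lower and 1 higher, beside 5.18% and 4.63%. Cyclic loess gave 22 negative differences, beside 49.8% of all features, and a median of -0.04. The difference after quantile normalization is therefore given with that of the median-centred signal for the single genes.

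**Figure D1:**
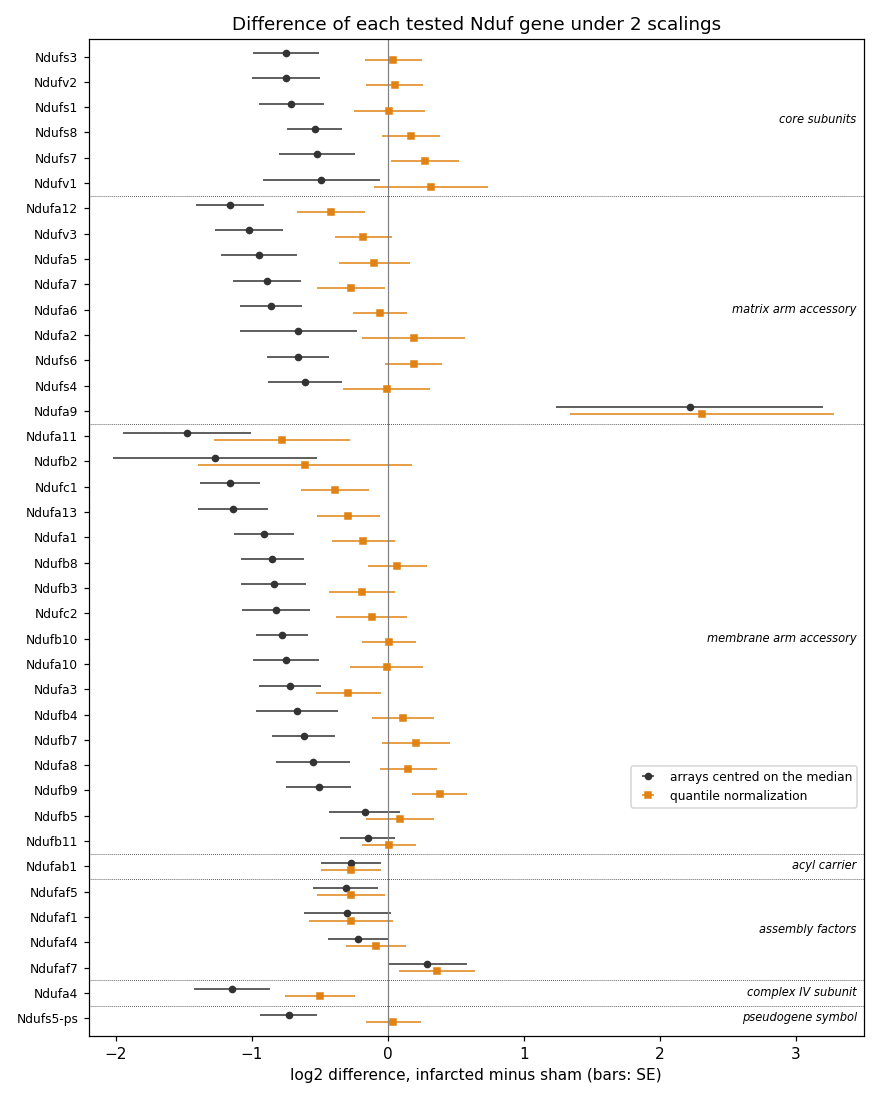
Log2 difference, infarcted minus sham, of each of the 39 tested Nduf genes, grouped by role, with arrays centred on the median (black circles) and after quantile normalization (orange squares); bars are the SE of the limma fit. The black circles lie left of 0 for 37 genes, the orange squares for 20, and Ndufa9 stands far to the right under both scalings.

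Taken over the 37 members with a value on every array, the median signal was 5.13, 5.71, 5.23 and 5.04 on sham replicates 1 to 4. It was 4.42, 4.43, 4.58 and 4.43 on infarcted replicates 1 to 4. All 4 infarcted medians were below the lowest sham median, and sham replicate 2 was the highest. After quantile normalization the sham medians were 4.70, 5.06, 4.76 and 5.00, and the infarcted ones 4.93, 4.84, 5.02 and 4.58, so that the groups overlapped.

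Bright spots had larger negative differences than dim spots, among the members and among other features. The 30 members with a mean signal above 4 all had negative differences, from -1.48 to -0.49 with a median of -0.77, and 21 of them did not overlap. In the band of signals from 4 to 5, the median was -0.82 for 13 members and -0.61 for 655 other features, of which 23.8% lay lower without overlap against 9 of the 13 members. In the band from 5 to 6 the medians were -0.75 for 15 members and -0.87 for 291 other features, of which 52.6% lay lower without overlap against 10 of the 15. Above 6 they were -0.83 for 2 members and -1.06 for 46 features. For the 7 members with signals from 0 to 2 the median was -0.27, beside -0.03 for 6138 features. The 2 members between 2 and 4 had -0.16, beside -0.18 for 2495 features. The part of signal level in the members' differences was not tested beyond these bands and the other scalings.

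**Figure D2:**
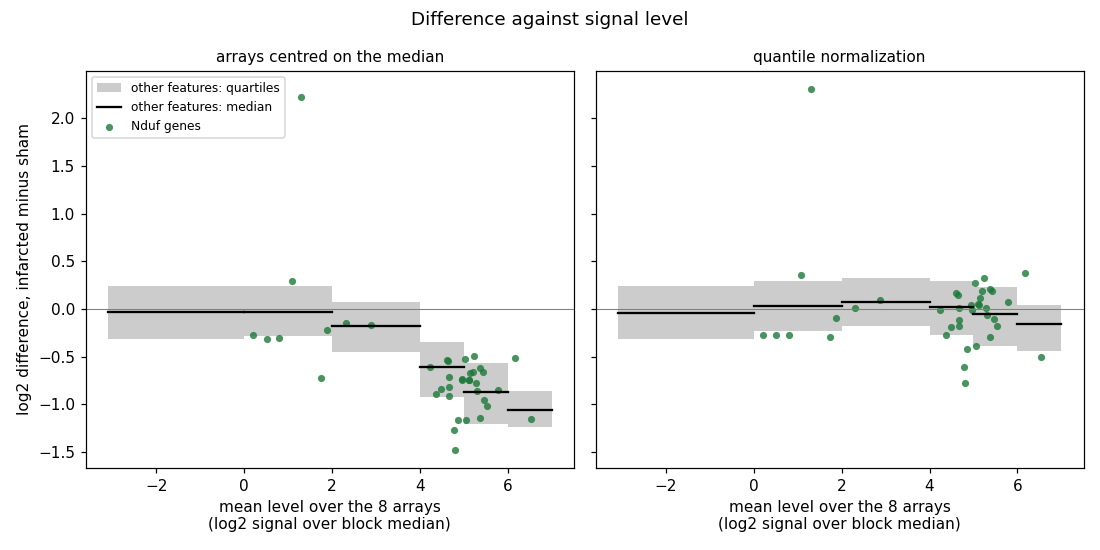
Difference, infarcted minus sham, against the mean signal of each feature (both log2), with arrays centred on the median (left) and after quantile normalization (right). Green points are the 39 Nduf genes, black lines the median and grey boxes the quartiles of the other features in each band of signal. With median centring both the members and the other bright features lie below 0, with medians of -0.75 and -0.87 between signals of 5 and 6; after quantile normalization these are 0.05 and -0.05.

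The place of a spot within its own array does not change with such a scaling. Of the 43 member spots with a value on every array, 19 had a lower mean percentile in infarcted than in sham hearts, Ndufa10 among them by no more than 0.03 points. For Ndufc1 the mean percentile was 98.0 in sham and 96.8 in infarcted hearts, for Ndufa12 97.4 and 95.8, and for Ndufa11 97.7 and 93.5. For Ndufb8, an accessory subunit of the membrane arm, it was 99.3 and 99.5. In group means these spots lay near the top of the arrays in both groups. For Ndufa11, infarcted replicate 1 was at 82.4, and infarcted replicates 2 to 4 were at 97.3, 98.2 and 96.0. The largest change was a rise, for the dim spot of Ndufa9, from a mean of 48.5 in sham to 79.1 in infarcted hearts. Sham replicate 1 was at 0.0 for that spot.

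All 6 core subunits had negative differences, with a median of -0.63, and 4 lay lower without overlap, beside 6.27% of all features. The mean signals of the 6 were 4.61 to 5.24. Outside the Nduf genes, 23.8% of features with signals from 4 to 5 and 52.6% with signals from 5 to 6 lay lower without overlap. In limma 0 of the 6 core subunits passed (beside 0.549% of all features), and 4 had an unadjusted p under 0.05 (beside 8.82%). After quantile normalization 0 of the 6 were negative and the median was 0.11. Ndufv1 holds the binding site for NADH and the flavin, and its signal was 5.00, 6.64, 5.10 and 5.20 on sham replicates 1 to 4 and 5.30, 5.72, 4.58 and 4.36 on infarcted replicates 1 to 4. The groups overlapped, with sham replicate 2 apart from the other 3 sham arrays, and the difference was -0.49 ± 0.43 (SE; adjusted p = 0.708), or 0.32 after quantile normalization. Without sham replicate 2 it was -0.11. Its partner Ndufv2, an iron-sulfur protein, read 5.29, 5.82, 5.80 and 5.04 in sham and 4.67, 4.52, 4.87 and 4.88 in infarcted hearts. All infarcted arrays lay below all sham arrays, by -0.75 ± 0.25 (SE; adjusted p = 0.239), and the value after quantile normalization was 0.05.

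Ndufs1, the large iron-sulfur subunit, read 5.13, 5.36, 4.68 and 4.95 in sham and 4.04, 4.43, 4.67 and 4.12 in infarcted hearts. Infarcted replicate 3 came within 0.01 of the lowest sham array, and the difference was -0.71 ± 0.24 (SE; adjusted p = 0.258), or 0.01 after quantile normalization. Ndufs3, a core subunit without a redox group of its own, read 5.39, 6.01, 5.41 and 5.15 in sham and 4.88, 4.64, 4.70 and 4.76 in infarcted hearts. The groups did not overlap, at -0.75 ± 0.24 (SE; adjusted p = 0.216) and 0.04 after quantile normalization.

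Ndufs7 carries the last iron-sulfur cluster before ubiquinone, and its signal was 5.07, 6.06, 5.25 and 4.85 in sham and 4.88, 4.88, 4.83 and 4.55 in infarcted hearts. Sham replicate 4 fell among the infarcted arrays, and the difference was -0.52 ± 0.28 (SE; adjusted p = 0.505), or 0.27 after quantile normalization. Without sham replicate 2 it was -0.27. Ndufs8, which also binds iron-sulfur clusters, read 4.75, 5.12, 4.83 and 4.83 in sham and 4.30, 4.22, 4.43 and 4.41 in infarcted hearts. Every infarcted array lay below every sham array, with -0.54 ± 0.20 (SE; adjusted p = 0.293), and the quantile-normalized difference was 0.17.

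Among the 9 accessory subunits of the matrix arm, 8 had negative differences and 6 lay lower without overlap (beside 6.27% of all features), with a median of -0.86 (-0.06 after quantile normalization, 6 of 9 negative). Of the features outside the Nduf genes, 23.8% with signals from 4 to 5 and 52.6% with signals from 5 to 6 lay lower without overlap. None passed in limma, and at an unadjusted p under 0.05 there were 7 lower and 1 higher, beside 8.82% and 3.46% of all features. Ndufa12, whose relative Ndufaf2 takes its place during assembly, read 5.33, 5.85, 5.38 and 5.19 in sham and 4.13, 4.03, 4.74 and 4.20 in infarcted hearts. The groups stood clear of each other, at 5.44 ± 0.29 and 4.27 ± 0.32 (SD, n = 4 each), a difference of -1.16 ± 0.25 (SE; adjusted p = 0.0803). After quantile normalization it was -0.42. Without sham replicate 4 it passed, at -1.25 (adjusted p = 0.0365), where 3.58% of all features passed.

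Ndufv3, an accessory subunit beside the NADH-binding end, read 6.25, 6.44, 5.88 and 5.59 in sham and 4.78, 5.15, 4.97 and 5.18 in infarcted hearts. The means were 6.04 ± 0.38 and 5.02 ± 0.18 (SD, n = 4 each) without overlap, a difference of -1.02 ± 0.25 (SE; adjusted p = 0.11), or -0.18 after quantile normalization. It passed without sham replicate 4, at -1.17 (adjusted p = 0.0318). Ndufa5, part of the ubiquinone-reducing module, read 5.45, 6.65, 5.82 and 5.85 in sham and 5.15, 5.14, 4.81 and 4.85 in infarcted hearts. The groups did not overlap, with -0.95 ± 0.28 (SE; adjusted p = 0.186) and -0.10 after quantile normalization.

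Ndufa9, which sits at the junction of both arms and binds a nucleotide, went against the other matrix arm subunits. Its signal was -3.00, 1.41, 1.16 and 1.18 on sham replicates 1 to 4 and 2.22, 1.59, 4.20 and 1.62 on infarcted replicates 1 to 4. Every infarcted array lay above every sham array, but sham replicate 1 and infarcted replicate 3 stood far from their groups. The difference was 2.22 ± 0.98 (SE; adjusted p = 0.399), and 2.31 after quantile normalization. Without sham replicate 1 it was 1.15, and without infarcted replicate 3 it was 1.62. The SD was 2.13 in sham and 1.23 in infarcted hearts (n = 4 each), larger than for the other 8 matrix arm subunits, and the gene rests on 1 spot.

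The remaining matrix arm subunits had differences from -0.89 to -0.61. Ndufa7 stood at -0.89 ± 0.25 and Ndufa6 at -0.86 ± 0.23 (SE), both without overlap. Ndufs6, which binds zinc, stood at -0.66 ± 0.23 without overlap, and Ndufs4, whose loss causes a Leigh-like disease in mice, at -0.61 ± 0.27 with overlap. Ndufa2 had the widest error of these, at -0.66 ± 0.43 with overlap. After quantile normalization Ndufa7 was at -0.27, Ndufa6 at -0.06, Ndufs4 at -0.01, and Ndufs6 and Ndufa2 both at 0.19.

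**Figure D3:**
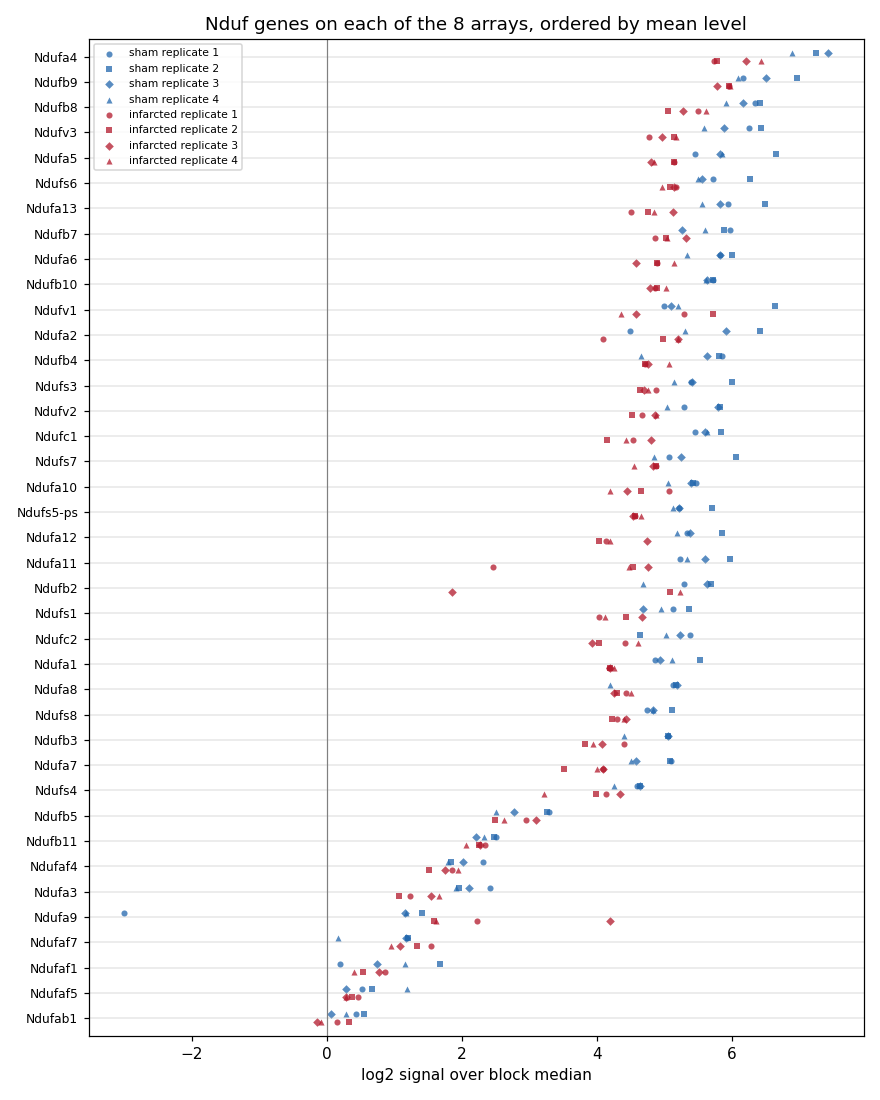
Signal (log2 of signal over block median) of the complex I genes on each of the 8 arrays, genes ordered by mean signal from top to bottom, with sham arrays in blue, infarcted arrays in red and a marker shape for each replicate number. For most bright genes the infarcted points lie left of the sham points, as for Ndufc1 (4.15 to 4.81 against 5.45 to 5.84), while Ndufa9 has its lowest point on a sham array.

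All 17 accessory subunits of the membrane arm had negative differences, with a median of -0.78, and 10 lay lower without overlap, beside 6.27% of all features. Among features outside the Nduf genes, 23.8% with signals from 4 to 5 and 52.6% with signals from 5 to 6 did so. None passed in limma, where 12 were lower at an unadjusted p under 0.05, beside 8.82% of all features. After quantile normalization 9 of the 17 were negative and the median was -0.01. Ndufc1, one of the smallest subunits, had the lowest adjusted p of all members. Its signal was 5.45, 5.84, 5.61 and 5.64 in sham and 4.53, 4.15, 4.81 and 4.43 in infarcted hearts. The groups were well apart, at 5.64 ± 0.16 and 4.48 ± 0.27 (SD, n = 4 each), a 2.23-fold lower signal and a difference of -1.16 ± 0.22 (SE; adjusted p = 0.057). It was -0.39 after quantile normalization. It passed without sham replicate 4, at -1.15 (adjusted p = 0.0365). With spots complete on all 8 arrays its adjusted p was 0.0483, and with limma's trended and robust variance 0.0489.

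Ndufa13, also known as GRIM-19, read 5.94, 6.49, 5.83 and 5.56 in sham and 4.51, 4.76, 5.13 and 4.85 in infarcted hearts. The groups did not overlap, with -1.14 ± 0.26 (SE; adjusted p = 0.0942), or -0.29 after quantile normalization, and without sham replicate 4 it passed at -1.28 (adjusted p = 0.0325). Leaving out sham replicates 2 and 4 together was a setting chosen after seeing the data. A value was then required on both remaining sham arrays, and 6.05% of 18520 features passed in limma. Ndufa13 and Ndufv3 were the 2 members that did, at adjusted p of 0.0467 and 0.0475. Ndufa1, a small subunit encoded on the X chromosome, read 4.86, 5.53, 4.94 and 5.12 in sham and 4.18, 4.20, 4.19 and 4.26 in infarcted hearts. The infarcted arrays were nearly equal (SD 0.04, n = 4), and the difference was -0.91 ± 0.22 (SE; adjusted p = 0.11), or -0.18 after quantile normalization.

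Ndufa11, at the contact of complex I with complex III in supercomplexes, had the largest negative difference of all members, -1.48 ± 0.47 (SE; adjusted p = 0.225). Its signal was 5.23, 5.98, 5.60 and 5.33 in sham and 2.47, 4.53, 4.76 and 4.48 in infarcted hearts. Infarcted replicate 1 lay far below the other 3, and without it the difference was -0.95 (adjusted p = 0.251). After quantile normalization over all arrays it was -0.78.

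Ndufb2 read 5.30, 5.69, 5.63 and 4.69 in sham, no value on infarcted replicate 1, and 5.09, 1.86 and 5.23 on infarcted replicates 2 to 4. Infarcted replicate 3 stood apart and the groups overlapped, so that the difference of -1.27 ± 0.75 (SE; adjusted p = 0.556) had the widest error in the membrane arm. After quantile normalization it was -0.61. The fit used the 7 arrays with a value.

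The other membrane arm subunits had differences from -0.85 to -0.15. Ndufb10, a protein with twin cysteine motifs, had tight groups, at 5.67 ± 0.05 and 4.89 ± 0.10 (SD, n = 4 each), and a difference of -0.78 ± 0.19 (SE; adjusted p = 0.112). After quantile normalization its difference was 0.01. Ndufb8, often used as a protein marker of assembled complex I, stood at -0.85, Ndufb3 at -0.84 and Ndufc2 at -0.82, each without overlap. Their quantile-normalized differences were 0.07, -0.19 and -0.12. Ndufa10 was at -0.75, Ndufb7 at -0.62 and Ndufa8 at -0.55, each with overlap. After quantile normalization they were at -0.01, 0.21 and 0.15. Ndufb9, at -0.51 without overlap, was at 0.38 after quantile normalization, with every infarcted array then above every sham array. The dimmer spots of Ndufb5 and Ndufb11, with mean signals of 2.88 and 2.31, differed by -0.17 ± 0.26 and -0.15 ± 0.20 (SE), or 0.09 and 0.01 after quantile normalization.

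Spots of the same gene did not always give the same difference. Of the 5 members with several spots, Ndufa3 had 1 bright spot with a difference of -1.28 and 1 dim spot with -0.16, so its mean of -0.72 (-0.29 after quantile normalization) describes neither. The 3 spots of Ndufb4 gave -0.47, -1.0 and -0.55 (mean -0.67 with overlap, 0.11 after quantile normalization), and they may also bind transcripts of the related genes Ndufb4b and Ndufb4c. The 3 spots of the assembly factor Ndufaf5 gave 0.48, -0.10 and -0.57, the last without a value on sham replicate 4. Over the mean of its spots, Ndufaf5 stood at -0.31 ± 0.24 (SE), or -0.27 after quantile normalization. With the median of its spots it was 0.31 and with the spots complete on all arrays 0.19, and without sham replicate 4 it was -0.14.

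Assembly factors and the acyl carrier protein lay nearer to the median spot and had smaller differences. Of the 4 tested assembly factors 3 were negative, with a median of -0.26 (-0.18 after quantile normalization), all groups overlapped, and 0 passed or had an unadjusted p under 0.05. Of these 3, Ndufaf5 was positive with the spots complete on all arrays. Ndufaf1, which works in the assembly of the membrane arm, read 0.20, 1.68, 0.74 and 1.16 in sham and 0.87, 0.54, 0.78 and 0.40 in infarcted hearts. The infarcted values lay within the sham range, with a difference of -0.30 ± 0.32 (SE; adjusted p = 0.775), or -0.27 after quantile normalization. It was -0.05 without sham replicate 2 and -0.55 without sham replicate 1. Ndufaf4, the partner of Ndufaf3, stood at -0.22 ± 0.22, or -0.09 after quantile normalization. Ndufaf7, an arginine methyltransferase, stood at 0.29 ± 0.29 (adjusted p = 0.749), or 0.36 after quantile normalization. Without sham replicate 4 it was 0.04.

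Ndufab1 is the mitochondrial acyl carrier protein, a subunit of complex I that also serves fatty acid and lipoic acid synthesis. It read 0.43, 0.56, 0.06 and 0.28 in sham and 0.16, 0.33, -0.15 and -0.09 in infarcted hearts. The groups overlapped, and the difference was -0.27 ± 0.22 (SE) under both scalings to 2 decimals. The adjusted p in limma was 0.687 with median centring and 0.725 after quantile normalization.

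Of the assembly factors of complex I whose names do not begin with Nduf, 10 were among the named spots and 8 could be tested. Their median was near 0, at -0.08 (0.00 after quantile normalization), and 5 were negative. Single differences ran from -0.59 to 0.28, or from -0.52 to 0.43 after quantile normalization. None passed in limma, and 1 was lower at an unadjusted p under 0.05, beside 8.82% of all features. Under median centring 1 lay lower without overlap, beside 6.27% of all features.

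Ndufa4, once counted as a subunit of complex I and now assigned to complex IV, had no value on sham replicate 1. It read 7.25, 7.43 and 6.89 on sham replicates 2 to 4 and 5.74, 5.78, 6.21 and 6.44 on infarcted replicates 1 to 4. The groups did not overlap, at -1.15 ± 0.28 (SE; adjusted p = 0.121) over these 7 arrays, or -0.50 after quantile normalization and -0.09 after cyclic loess. Missing values were more common among bright spots on the sham arrays: in the 1073 spots with a signal above 20000 on any array, 190 values were missing in sham and 38 in infarcted hearts. The part of these in its difference was not tested. Ndufs5-ps stood at -0.73 without overlap, and 0.04 after quantile normalization. Without both genes, 20 members lay lower without overlap.

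The other respiratory complexes were set beside complex I. Complex III had a median of -1.01 over 7 tested genes, all negative, and 2 genes that passed: Uqcrb fell by 1.15 (SE 0.19, adjusted p = 0.0375) and Uqcrh fell by 1.48 (SE 0.26, adjusted p = 0.0452). Complex IV had a median of -0.98 with 9 of 10 negative, and its subunits Cox7a2 and Cox6b1 fell by 1.57 (SE 0.24, adjusted p = 0.0298) and 1.29 (SE 0.21, adjusted p = 0.0337). ATP synthase had a median of -1.05 with 12 of 13 negative, and Atp5j2 fell by 1.69 (SE 0.25, adjusted p = 0.0337). Complex II had -0.52 over 4 genes, 3 of them negative, with 0 past the threshold and 2 at an unadjusted p under 0.05. Of all features 0.549% passed in limma, and 8.82% were lower at an unadjusted p under 0.05. Of the named genes of complexes III, IV and V, 7 of 8, 10 of 14 and 13 of 15 could be tested. The others had values on at most 2 sham arrays, so the medians leave them out. Differences ran from -4.95 to 0.19 in complex IV and from -2.82 to 0.18 in ATP synthase. After quantile normalization they ran from -4.62 to 0.38 and from -2.34 to 0.96. The median signals of complexes III, IV and V were 5.74, 5.54 and 5.69. Among features outside the Nduf genes with signals from 5 to 6, 9.28% passed. The differences between complexes were not tested. After quantile normalization the medians were -0.14, -0.10, -0.13 and 0.07 for complexes III, IV, V and II, beside -0.01 for complex I, and no gene of these lists passed. Uqcrb was then at -0.22, Uqcrh at -0.61, Cox7a2 at -0.76, Cox6b1 at -0.44 and Atp5j2 at -0.78.

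**Figure D4:**
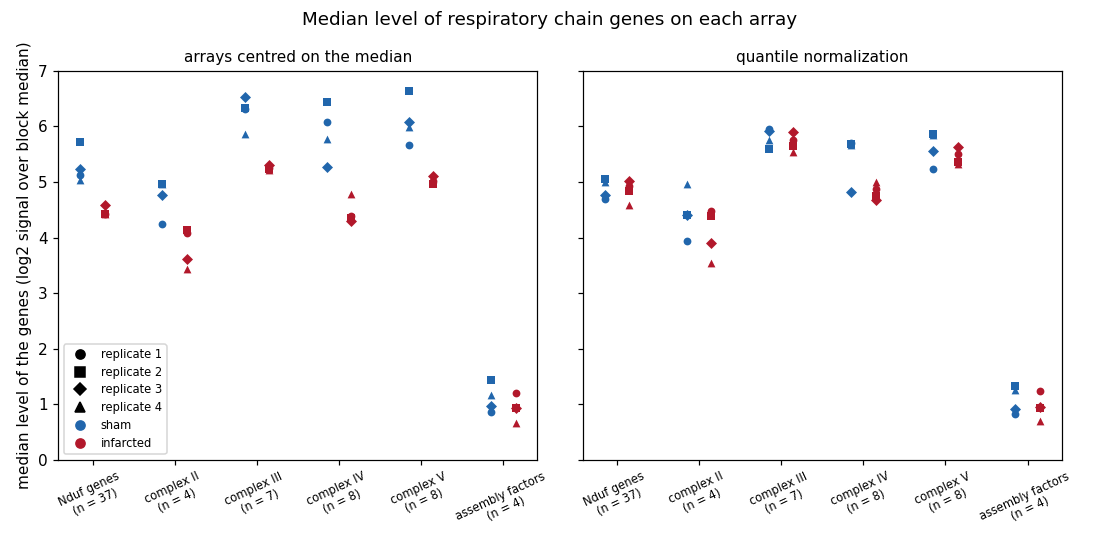
Median signal on each array of the Nduf genes and of the other respiratory complexes and assembly factors, for sham and infarcted hearts, with arrays centred on the median and after quantile normalization. With median centring the infarcted arrays of the Nduf genes (4.42 to 4.58) lie below the sham arrays (5.04 to 5.71); after quantile normalization the ranges overlap, at 4.58 to 5.02 and 4.70 to 5.06.

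Regulators of mitochondrial genes lay closer to the median spot. Of 12 tested, 7 were negative with a median of -0.12 (0.08 after quantile normalization), and none passed or had an unadjusted p under 0.05. Ppargc1a, a coactivator of mitochondrial biogenesis, stood at -0.09 ± 0.22 (SE; adjusted p = 0.908), and the nuclear receptor Esrra at -0.20 ± 0.32 (adjusted p = 0.857). Nrf1 stood at 0.10 ± 0.24 (adjusted p = 0.911) and Tfam, which packages mitochondrial DNA, at -0.44 ± 0.44 (adjusted p = 0.751). After quantile normalization Ppargc1a was at 0.05, Esrra at 0.14, Nrf1 at 0.11 and Tfam at -0.31. Enzymes of ubiquinone synthesis, which make the electron acceptor of complex I, had a median of -0.24 with 6 of 8 negative. After quantile normalization the median was -0.13 with 5 of 8 negative, and under both scalings 0 had an unadjusted p under 0.05.

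Macrophage markers had differences of the opposite sign. Of 14 tested, 13 had positive differences, with a median of 0.62 (0.74 after quantile normalization, 14 of 14 positive), none passed, and 6 were higher at an unadjusted p under 0.05, beside 3.46% of all features. Their mean signal over 13 complete genes ranged from 0.26 to 0.64 in sham hearts and from 1.03 to 1.51 in infarcted hearts, without overlap. The 6 tested heart muscle markers had a median of -0.15, or 0.48 after quantile normalization. With median centring, 4 of them, complete on all arrays, had a mean signal of 4.76 to 5.15 in sham and 4.53 to 4.66 in infarcted hearts. After quantile normalization the direction was the opposite, at 4.24 to 4.74 in sham and 4.74 to 5.03 in infarcted hearts. The other named heart muscle markers had values on at most 2 sham arrays and were not tested, so both medians leave them out. Fibroblast markers had a median of -0.05 over 11 genes, or 0.08 after quantile normalization. Their mean signals with median centring were 2.13 to 2.65 in sham and 2.06 to 2.56 in infarcted hearts. The part of these markers in the complex I differences was not tested.

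Because most members lay lower together under median centring, their upstream sequences were set beside the values. Of the 40 genes, 36 had promoters in the RefSeq table of GRCm38.p6, with 38 start sites, and Ndufa2, Ndufb9, Ndufs1 and Ndufs5-ps are named only. The 250 bases before each start were searched on both strands for GCGC followed by 2 bases of any kind and GCGC again (the core of the motif of the factor NRF1), for CCGGAA, the motif of the ETS family to which GABPA belongs, and for AAGGTCA, an element bound by ERR receptors. The first was in 23.7% of the member promoters (9 of 38) and 4.98% of all 32851 promoters, the second in 21.1% (8 of 38) and 12.0%, and the third in 5.26% (2 of 38) and 4.08%. In all, 17 member genes held any of them. The following are the 200 bases before the start, 5′ to 3′ on the gene's strand with the motif matches in capitals, for 5 members described above: the core subunit Ndufs3, Ndufa11 with the largest negative difference, Ndufc1 with the lowest p, Ndufb4 with several matches, and the dim Ndufab1.
Ndufs3 chr2:90904722-90904921 (minus strand): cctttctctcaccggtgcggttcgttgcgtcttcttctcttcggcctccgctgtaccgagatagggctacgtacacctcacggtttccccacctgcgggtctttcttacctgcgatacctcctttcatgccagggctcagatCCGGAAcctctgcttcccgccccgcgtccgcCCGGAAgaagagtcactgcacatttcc
Ndufa11 chr17:56717562-56717761 (plus strand): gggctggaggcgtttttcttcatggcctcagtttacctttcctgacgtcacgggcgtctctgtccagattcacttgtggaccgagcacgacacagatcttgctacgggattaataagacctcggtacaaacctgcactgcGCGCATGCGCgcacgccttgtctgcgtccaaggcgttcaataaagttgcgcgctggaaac
Ndufb4 chr16:37654369-37654568 (minus strand): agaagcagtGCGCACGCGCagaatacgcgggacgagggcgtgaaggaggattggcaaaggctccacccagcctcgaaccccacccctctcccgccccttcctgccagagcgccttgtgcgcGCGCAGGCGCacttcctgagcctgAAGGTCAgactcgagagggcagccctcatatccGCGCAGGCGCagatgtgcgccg
Ndufc1 chr3:51408956-51409155 (minus strand): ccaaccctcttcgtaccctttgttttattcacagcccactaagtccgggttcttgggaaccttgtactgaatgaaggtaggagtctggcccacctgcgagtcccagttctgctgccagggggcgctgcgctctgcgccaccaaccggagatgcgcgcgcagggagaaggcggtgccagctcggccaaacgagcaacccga
Ndufab1 chr7:122101849-122102048 (minus strand): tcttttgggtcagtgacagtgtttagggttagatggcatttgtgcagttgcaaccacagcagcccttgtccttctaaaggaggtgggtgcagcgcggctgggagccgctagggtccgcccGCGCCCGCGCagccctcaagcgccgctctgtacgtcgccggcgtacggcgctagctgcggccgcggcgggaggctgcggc
Ndufs3 held 2 ETS matches and Ndufb4 held 3 NRF1 core matches with 1 ERR element. Ndufa11 and Ndufab1 each held 1 NRF1 core match, 60 and 80 bases before the start. These letters are not in the window of Ndufc1. Ndufa11 and Ndufab1, which share the NRF1 core, had differences of -1.48 and -0.27, and a match is a description of the sequence only.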

How the data were processed

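The authors deposited log2 values for 33600 spots on 8 arrays, per the labels 1 heart each. The software and settings behind them are not given in the sources used here. In each of the 384 block-array pairs (48 blocks of 700 spots), the values became whole numbers (tolerance 0.001) after multiplying 2 to their power by 1 constant, and signals ran from 42 to 65466. They were therefore read as the signal of a single channel over its block median, not a ratio to the reference, and the planned test was kept. Probes were named through the platform annotation: 18179 had 1 symbol, 87 several and 15334 were unnamed here.

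Spots of a gene were averaged, arrays centred on the median, and features with a value on at least 3 arrays of each group (18044) were tested with limma 3.58.1 in R 4.3.3 (lmFit, eBayes, Benjamini-Hochberg). Separate hearts are labelled, so p-values measure the spread between hearts and arrays. The fit was tested on simulated data. The members and gene lists were chosen with earlier results of these data known. Values on every array are given for the 10 members with the largest absolute difference and for genes fixed by name. Alternatives covered the scaling, missing values, spot averaging, variance model, bright spots (a signal over 50000), a replicate block and leaving out each array.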

Additional observations from a re-analysis of the deposited data

Results flagged for a closer look

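Within each group of 4 arrays, the highest or lowest value of each complex I gene was compared with its nearest neighbour by Dixon's test. Of 76 such groups 13 (17.1%) had an array far from the other 3, where chance gives about 1 in 20, and groups measured on the same arrays are not independent.

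In sham hearts, replicate 4 was the lowest for Ndufa8 (4.20, next 5.13), Ndufaf7 (0.17, next 1.18), Ndufb3 (4.41, next 5.05) and Ndufs4 (4.26, next 4.60). Sham replicate 2 was the highest for Ndufs5-ps (5.71, next 5.22) and Ndufv1 (6.64, next 5.20). Sham replicate 1 was the lowest for Ndufa9 (-3.00, next 1.16).

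In infarcted hearts, replicate 1 was the lowest for Ndufa11 (2.47, next 4.48), replicate 2 for Ndufa7 (3.52, next 4.01), replicate 3 for Ndufb9 (5.78, next 5.96) and replicate 4 for Ndufs7 (4.55, next 4.83). Infarcted replicate 4 was the highest for Ndufb4 (5.07, next 4.76) and Ndufa1 (4.26, next 4.20), the last in a group spanning 4.18 to 4.26.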

How the results depend on the processing

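The median complex I difference of -0.72 became -0.01 after quantile normalization and -0.04 after cyclic loess. Leaving out single arrays gave -0.79 to -0.59. The complex I count of 0 became 1 (Ndufc1) with spots complete on 8 arrays and 1 with trended, robust variance, 0 to 4 without single arrays (4 only without sham replicate 4), and 2 (Ndufa13 and Ndufv3) without sham replicates 2 and 4, a setting chosen after seeing the data, where 6.05% of all features passed. The count over all features, 99, became 32 after quantile normalization, 27 with the block scaling undone, 50 without bright spots, 1120 without sham replicates 2 and 4 (where a value on both remaining sham arrays was enough, so that 18520 features were tested), and 3 to 615 without single arrays: 21, 30, 24 and 615 without sham replicates 1 to 4, and 11, 6, 3 and 5 without infarcted replicates 1 to 4. Leaving out 1 array moved the difference by over 1.5 times for 13 of the 39 genes. They were Ndufa2, Ndufa9, Ndufa11, Ndufs4, Ndufs7, Ndufv1, Ndufb5, Ndufb9, Ndufb11, Ndufaf1, Ndufaf4, Ndufaf5 and Ndufaf7. The count does not cover Ndufb2 without infarcted replicates 2, 3 or 4, or Ndufa4 without sham replicates 2, 3 or 4. Too few values were then left for a fit, so the dependence of Ndufb2 on infarcted replicate 3, which stood apart, was not tested. The 22 complex I genes lower without overlap became 16 with the block scaling undone and 0 after quantile normalization.

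With the replicate number as a block, 1 feature and 0 complex I genes passed and the complex I median stayed at -0.72. Deviations of same-numbered arrays correlated at 0.022, 0.311, -0.077 and -0.193, and 2 of 8 arrays correlated best with their own number, so the numbers were not taken to pair the samples.

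Differences changed sign after quantile normalization and cyclic loess for Ndufa2 (0.19 and 0.13), Ndufa8 (0.15 and 0.12), Ndufb10 (0.01 and 0.03), Ndufb11 (0.01 and 0.01), Ndufb4 (0.11 and 0.11), Ndufb5 (0.09 and 0.10), Ndufb7 (0.21 and 0.21), Ndufb8 (0.07 and 0.07), Ndufb9 (0.38 and 0.51), Ndufs3 (0.04 and 0.02), Ndufs6 (0.19 and 0.18), Ndufs7 (0.27 and 0.23), Ndufs8 (0.17 and 0.11), Ndufv1 (0.32 and 0.30) and Ndufv2 (0.05 and 0.01). After quantile normalization alone they did so for Ndufs1 (0.01) and Ndufs5-ps (0.04). Ndufb11 was at 0.13 with the block scaling undone, Ndufaf5 at 0.31 with the median of its spots and 0.19 with complete spots, and Ndufaf1 at 0.18 without sham replicates 2 and 4. Beyond what each setting does by construction, the cause was not tested.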
